A study of Rattus norvegicus with 9 samples.

Results

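The immunoproteasome and class I antigen processing genes examined here were the 10 rows of the count and RPKM tables with the symbols Psmb8, Psmb9, Psmb10, Psme1, Psme2, Tap1, Tap2, Tapbp, B2m and Nlrc5. All 10 were found among the 28935 gene symbols counted, and 8 of them were among the 14151 genes with enough counts to be tested. Psme1 and Tap2 had too few counts. Messenger RNA was sequenced from cultures of neonatal rat ventricular myocytes, heart muscle cells isolated from Sprague Dawley rats shortly after birth, to ask how the transcriptome of these cells changes when NFYA or NFE2L1 is overexpressed. Every culture was infected with an adenovirus, which carried Nfya in 3 libraries, Nfe2l1 in 3 libraries and GFP, the negative control, in 3 libraries. All cultures spent 48 h in medium with 3% fetal bovine serum, were then infected, and spent a further 48 h in serum-free medium before RNA was collected. The sources used here do not give the promoter or the species of the viral inserts. Whether the 3 libraries of a group are separate cultures is not stated in the labels, and the p-values may therefore reflect technical spread alone.

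Library totals ranged from 5712123 to 7310774 counts. The 3 Nfya-labelled libraries differed from each other by no more than sampling noise on average over all genes compared (chi-square per degree of freedom of 0.980 to 1.01). Single genes still differed among them, such as the interferon-induced gene Mx2 with 232, 89 and 277 counts, and they were kept as 3 libraries. The Nfe2l1-labelled pairs gave 1.12 to 1.53, and GFP 3 stood apart from GFP 1 and 2 at 1.59 and 1.65, against 1.07 between those 2. GFP 2 stood apart for interferon-induced genes: of 30 tested, 25 had their highest GFP level in GFP 2, 2 in GFP 1 and 3 in GFP 3, with Mx2 at 19.2, 65.0 and 37.3 CPM in GFP 1, 2 and 3. The labelled factors were not clearly raised as rat transcripts. In CPM, counts scaled to library size, Nfya averaged 89.0 ± 0.683 CPM in Nfya-labelled libraries and 80.4 ± 2.19 CPM in GFP libraries (SD, n = 3 each), a 1.11-fold rise that passed the test (edgeR adjusted p = 0.00926). It averaged 92.3 ± 2.20 CPM in Nfe2l1-labelled libraries (SD, n = 3), each of which lay above every Nfya-labelled library (edgeR adjusted p = 0.361 for Nfya-labelled against Nfe2l1-labelled libraries), and it rose against GFP libraries there too (edgeR adjusted p = 2.06e-04). Nfe2l1 averaged 239 ± 6.14 CPM in Nfe2l1-labelled libraries and 241 ± 6.09 CPM in GFP libraries (SD, n = 3 each; edgeR adjusted p = 0.856). The groups are therefore named by their labels throughout.

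Nucleated cells display fragments of their own proteins on class I molecules of the major histocompatibility complex (MHC). The 20S proteasome cuts proteins with 3 catalytic beta subunits, and under interferon gamma the subunits encoded by Psmb8, Psmb9 and Psmb10 take the place of those encoded by Psmb5, Psmb6 and Psmb7 in newly built particles. The PA28 regulator, built from the Psme1 and Psme2 products, caps the particle, the TAP1 and TAP2 transporter carries peptides into the endoplasmic reticulum, and tapasin (Tapbp) holds class I molecules at the transporter while peptides are loaded. B2m encodes beta-2 microglobulin, the light chain of every class I molecule, and NLRC5 is the coactivator that binds, together with NF-Y, RFX and CREB family factors, at class I promoters. NFYA is the subunit of NF-Y that recognises the CCAAT box, and NFE2L1 is a cap'n'collar factor known for inducing genes of the constitutive proteasome through antioxidant response elements.

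The promoters of the members are shown because both factors and the interferon-regulated IRF factors are known to bind short DNA motifs. Whether they bind these promoters was not tested. RefSeq promoter windows of 300 bases (build GRCr8), from 250 bases before to 50 bases after the gene start, were matched for 9 of the 10 members, all except Nlrc5. Capitals mark matches on either strand to CCAAT (the Y box of NF-Y, read as ATTGG on the other strand), TGACNNNGC (the antioxidant response element core) or GAAANNGAA (the interferon response element core). For Psmb10, Tapbp and B2m the stretch that holds the matches is shown, ending 50 bases after the gene start.
Psmb9 promoter, chr20:4668750-4669049, plus strand: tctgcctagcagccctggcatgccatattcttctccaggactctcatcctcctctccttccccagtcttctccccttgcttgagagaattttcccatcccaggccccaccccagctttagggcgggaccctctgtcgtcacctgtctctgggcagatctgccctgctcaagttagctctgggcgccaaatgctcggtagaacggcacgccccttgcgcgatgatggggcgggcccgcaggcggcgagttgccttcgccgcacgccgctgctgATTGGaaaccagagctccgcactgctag
Tap1 promoter, chr20:4668494-4668793, minus strand: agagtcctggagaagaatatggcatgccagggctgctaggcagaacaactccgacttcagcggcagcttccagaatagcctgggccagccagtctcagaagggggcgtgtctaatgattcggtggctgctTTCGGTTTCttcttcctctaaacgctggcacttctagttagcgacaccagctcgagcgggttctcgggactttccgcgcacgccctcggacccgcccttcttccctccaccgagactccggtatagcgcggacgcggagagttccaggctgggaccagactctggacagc
Psmb10 promoter, chr19:50743243-50743392, minus strand: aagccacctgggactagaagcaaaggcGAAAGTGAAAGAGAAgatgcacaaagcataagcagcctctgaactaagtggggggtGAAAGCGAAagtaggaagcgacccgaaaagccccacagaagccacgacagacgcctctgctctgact
Tapbp promoter, chr20:4967828-4967997, minus strand: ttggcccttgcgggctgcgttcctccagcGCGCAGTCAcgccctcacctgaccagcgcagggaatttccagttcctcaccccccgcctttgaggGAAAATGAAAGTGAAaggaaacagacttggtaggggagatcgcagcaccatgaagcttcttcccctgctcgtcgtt
B2m promoter, chr3:129549160-129549379, plus strand: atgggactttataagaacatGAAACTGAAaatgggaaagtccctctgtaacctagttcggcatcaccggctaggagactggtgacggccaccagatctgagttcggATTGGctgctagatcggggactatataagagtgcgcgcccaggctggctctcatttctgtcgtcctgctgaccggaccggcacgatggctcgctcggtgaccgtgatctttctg

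Matches to GAAANNGAA were found in 7 of 9 member windows, against 9.71% of all 33469 windows and 3 of 13 windows of the constitutive 20S core genes. Psmb10 and Tapbp each carried a pair of overlapping matches in the same orientation, which began 73 and 67 bases before the start in Psmb10 and 26 and 20 bases before it in Tapbp, and Psmb10 had another match 17 bases before its start. Single matches lay 3 bases before the start in Psmb8, 41 in Tap2, 53 in Psme2, 120 in Tap1 and 150 in B2m. Matches to CCAAT were found in 3 of 9 member windows, against 37.5% of all windows and 9 of 13 windows of the constitutive 20S core genes. They lay 73 bases before the start in Psmb8, 64 before it in B2m and 23 after it in Psmb9. A match to TGACNNNGC was found in 1 of 9 member windows, that of Tapbp at 91 bases before the start, against 12.1% of all windows and 4 of 13 windows of the constitutive 20S core genes. A match describes the letters in the window and is not a measured binding site. Tap2, Psmb8, Tap1 and Psmb9 are neighbours in that order in RefSeq's rat gene table, and the Tap1 and Psmb9 windows run in opposite directions and share 44 bases. The Tap1 match to GAAANNGAA lies between the Tap1 and Psmb9 starts but outside the Psmb9 window. Sequence further before the Psmb9 start was not counted for Psmb9.

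**Figure D1:**
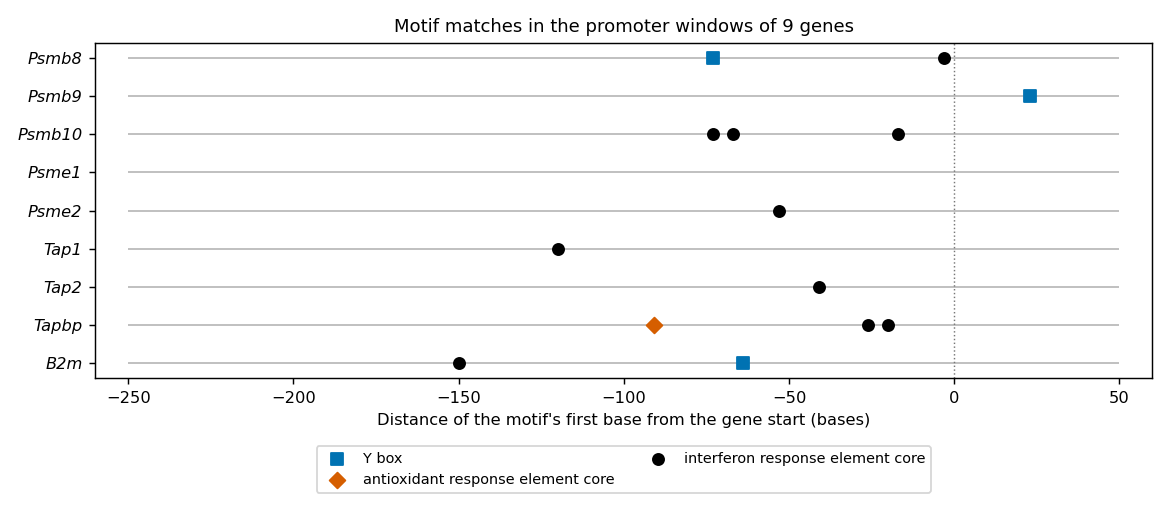
Matches to 3 motifs in the promoter windows of 9 members, plotted by the distance in bases of each match from the gene start (dotted line at 0, the window running from 250 before to 50 after). Black circles, the interferon response element core, appear in 7 of the 9 windows, blue squares, the Y box, in 3, and the orange diamond, the antioxidant response element core, in 1.

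The members spanned a wide range of transcript levels per length. In GFP libraries B2m averaged 84.2 RPKM, followed by Psme2 at 35.9, Tapbp at 31.6, Psmb10 at 14.5, Tap1 at 10.1, Psmb9 at 5.22, Psmb8 at 1.50 and Nlrc5 at 0.403 RPKM, and the libraries of no 2 neighbours in this order overlapped. The order was the same in Nfya-labelled libraries, where Psmb10 at 15.4 RPKM and Tap1 at 14.7 RPKM overlapped. In Nfe2l1-labelled libraries Tapbp at 38.1 RPKM and Psme2 at 37.8 RPKM changed places and overlapped. Psme1, the partner of Psme2 in PA28, summed to 7 counts in Nfya-labelled, 8 in Nfe2l1-labelled and 9 in GFP libraries, and Tap2, the partner of Tap1 in the transporter, to 2 counts in Nfya-labelled, 4 in Nfe2l1-labelled and 2 in GFP libraries. RefSeq's rat gene table lists pseudogenes of both Psme1 and Psme2, so that how reads were divided among these copies is uncertain. The maturation factor gene Pomp, which every 20S particle needs, also had 4 counts or fewer in each library. Whether the annotation or the assignment of reads set the low counts of Psme1, Tap2 and Pomp was not tested.

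**Figure D2:**
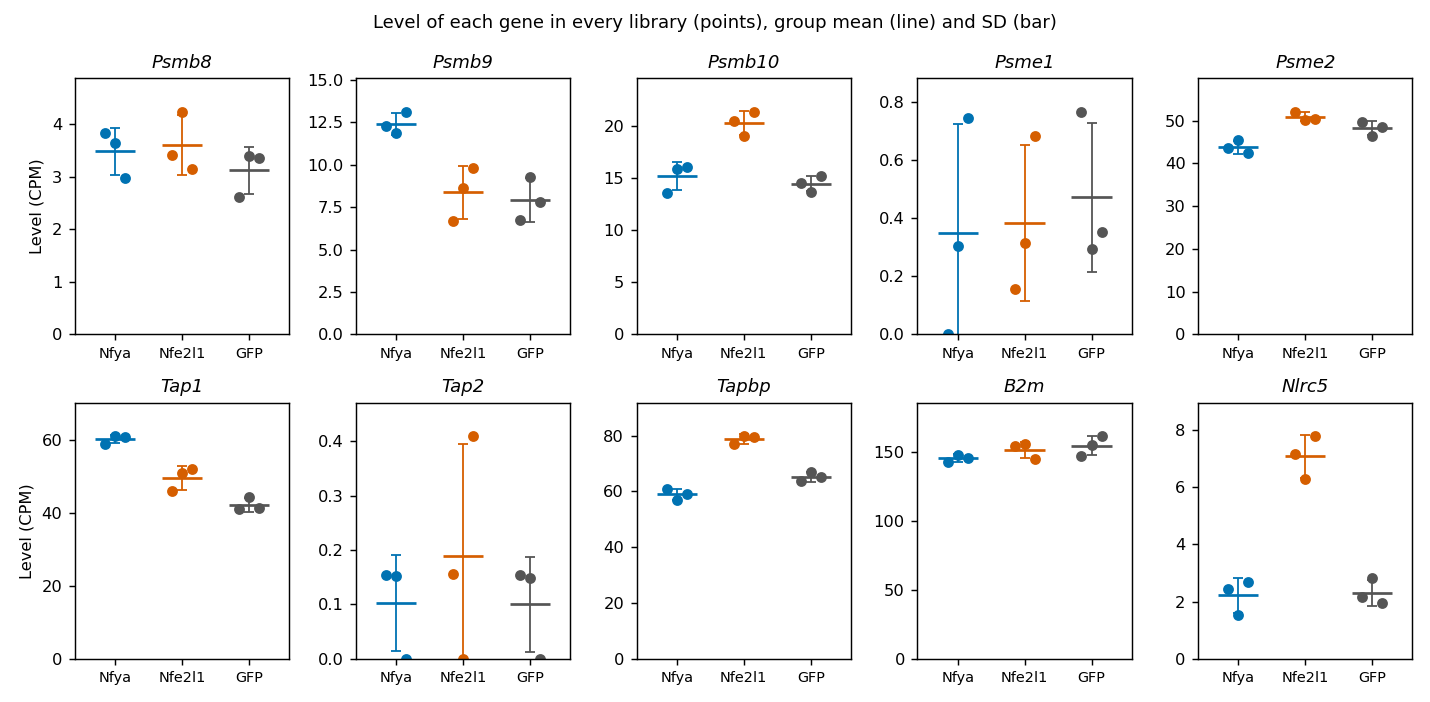
Level of each of the 10 members in CPM (y axis from 0) in the 3 Nfya-labelled, 3 Nfe2l1-labelled and 3 GFP libraries; points are libraries, lines group means and bars SD. Psmb9 and Tap1 are highest in the Nfya-labelled libraries, Psmb10, Tapbp and Nlrc5 in the Nfe2l1-labelled libraries, and Psme1 and Tap2 stay below 1 CPM everywhere.

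In Nfya-labelled against GFP libraries Psmb9 and Tap1 rose and Tapbp fell, while Psmb8, Psmb10, Psme2, B2m and Nlrc5 did not pass the test. In Nfe2l1-labelled against GFP libraries Psmb10, Tap1, Tapbp and Nlrc5 rose, and Psmb8, Psmb9, Psme2 and B2m did not pass. Nlrc5 rose 3.04-fold, and the other called changes between a virus and GFP were between 1.11-fold and 1.56-fold. Over all genes tested, 24.3% were called higher and 27.9% lower in Nfya-labelled against GFP libraries at an edgeR adjusted p below 0.05. Of 8 members 2 were called higher, a share near that background, and 1 lower, a share below it. For Nfe2l1-labelled against GFP libraries 28.9% of all genes were called higher and 29.7% lower, and 4 of 8 members were called higher. Without GFP 3 the same numbers of members were called, 2 higher and 1 lower in Nfya-labelled and 4 higher in Nfe2l1-labelled against GFP libraries. Over all genes that fit called 22% higher and 26.6% lower in Nfya-labelled and 27% higher in Nfe2l1-labelled libraries. Without GFP 2 there were 2 higher and 0 lower in Nfya-labelled (edgeR) and 4 higher in Nfe2l1-labelled against GFP libraries. Here the shares over all genes were 24.9% higher and 21.4% lower in Nfya-labelled and 28% higher in Nfe2l1-labelled libraries. The median log2 fold change of the 8 members was 0.01 in Nfya-labelled against GFP libraries, beside -0.02 over all genes tested, and 0.22 in Nfe2l1-labelled against GFP libraries, beside -0.01. Both comparisons share the 3 GFP libraries. In bulk libraries fewer cells of a type and less RNA per cell cannot be told apart.

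**Figure D3:**
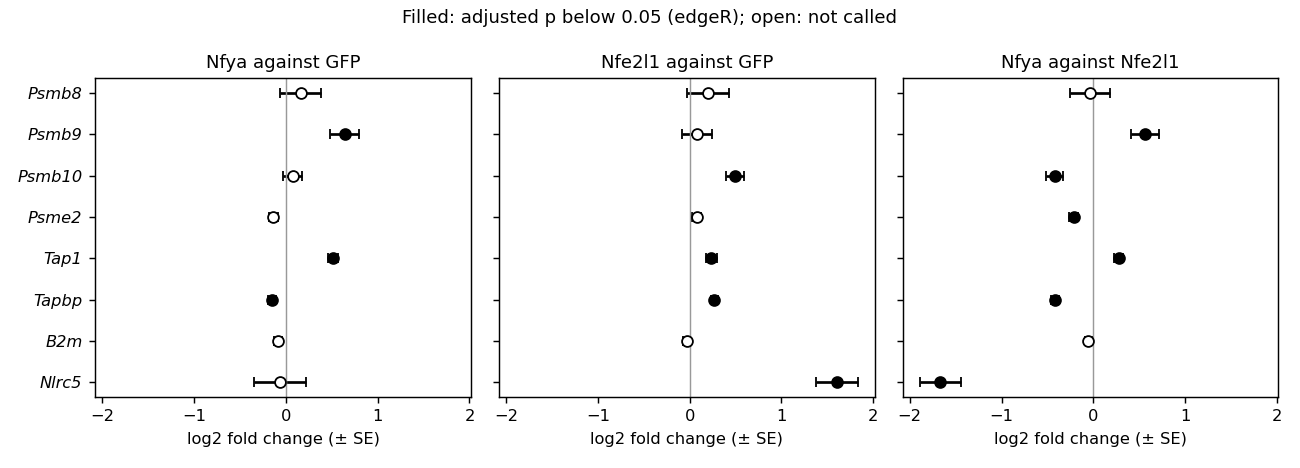
The log2 fold change (x axis) with its standard error (bar) of the 8 tested members for Nfya-labelled against GFP, Nfe2l1-labelled against GFP and Nfya-labelled against Nfe2l1-labelled libraries; filled points passed an edgeR adjusted p below 0.05. Nlrc5 stands at 1.6 in Nfe2l1-labelled against GFP libraries, and B2m and Psmb8 are open in all 3 panels.

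Summed markers of other cell types differed between each virus group and the GFP libraries, without overlap. The marker calls below stand beside 24.3% higher and 27.9% lower over all genes in Nfya-labelled against GFP libraries. For Nfe2l1-labelled against GFP libraries these shares were 28.9% and 29.7%. The summed level of 15 macrophage and leukocyte markers was 116 to 128 CPM in Nfya-labelled, 121 to 135 CPM in Nfe2l1-labelled and 81.9 to 103 CPM in GFP libraries, and of the 9 tested 6 were called higher and 1 lower in Nfya-labelled and 4 higher in Nfe2l1-labelled against GFP libraries. The lymphocyte markers Cd3e, Ms4a1 and Nkg7 had no count in any library. The summed fibroblast markers were at 1972 to 1998 CPM in Nfya-labelled, 1668 to 1792 CPM in Nfe2l1-labelled and 1066 to 1124 CPM in GFP libraries, with 9 of 10 called higher in each virus group against GFP and Col1a2 lower in Nfya-labelled libraries. The summed endothelial markers were at 384 to 401 CPM in Nfya-labelled, 437 to 462 CPM in Nfe2l1-labelled and 300 to 315 CPM in GFP libraries. Of 8 tested, 5 were called higher in Nfya-labelled and 6 in Nfe2l1-labelled against GFP libraries, and Kdr was lower in both, at 77.0 CPM in Nfya-labelled, 90.0 CPM in Nfe2l1-labelled and 163 CPM in GFP libraries. Smooth muscle markers summed to 1057 to 1076 CPM in Nfya-labelled, 740 to 764 CPM in Nfe2l1-labelled and 968 to 980 CPM in GFP libraries, with 5 called higher and 1 lower of 7 in Nfya-labelled and 1 higher and 3 lower in Nfe2l1-labelled against GFP libraries. Epicardial markers summed to 191 to 212 CPM in Nfya-labelled, 283 to 296 CPM in Nfe2l1-labelled and 153 to 165 CPM in GFP libraries, with 7 called higher and 1 lower of 8 in each virus group against GFP. Their part in the rise of Psmb9, Psmb10, Tap1, Tapbp and Nlrc5 was not tested. Markers of cardiomyocytes, the labelled cell type, summed to 3410 to 3462 CPM in Nfya-labelled, 3070 to 3387 CPM in Nfe2l1-labelled and 3182 to 3529 CPM in GFP libraries. The GFP libraries overlapped with both other groups, and the Nfya-labelled libraries lay above the Nfe2l1-labelled libraries. Of the 10 cardiomyocyte markers, Myh6, Myl2 and Myl7 were called higher in Nfya-labelled libraries against each of the other groups. That is 30%, near the all-gene shares of 24.3% against GFP and 25.2% against Nfe2l1-labelled libraries. In Nfe2l1-labelled against GFP libraries 0 were called higher and Nppa was called lower (log2 fold change -0.14, edgeR adjusted p = 0.0106).

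Among the catalytic subunits, Psmb9 encodes the immunoproteasome beta1i subunit. Psmb9 had 12.3, 11.9 and 13.1 CPM in Nfya-labelled, 6.69, 8.62 and 9.82 CPM in Nfe2l1-labelled and 6.74, 9.31 and 7.78 CPM in GFP libraries. Every Nfya-labelled library lay above every other library, and the Nfe2l1-labelled and GFP libraries overlapped. The log2 fold change of Psmb9 was 0.64 ± 0.16 (SE) in Nfya-labelled against GFP libraries, a 1.56-fold rise (edgeR adjusted p = 0.00264), and 0.08 ± 0.17 in Nfe2l1-labelled against GFP libraries (adjusted p = 0.704). Psmb10, which encodes the beta2i subunit, had 13.6, 16 and 16.1 CPM in Nfya-labelled, 20.5, 19.1 and 21.4 CPM in Nfe2l1-labelled and 14.6, 13.7 and 15.2 CPM in GFP libraries. Here the Nfe2l1-labelled libraries were the high ones, and the Nfya-labelled and GFP libraries overlapped. Psmb10 rose 1.41-fold in Nfe2l1-labelled against GFP libraries, a log2 fold change of 0.49 ± 0.10 (edgeR adjusted p = 3.10e-04), and stood at 0.08 ± 0.10 in Nfya-labelled against GFP libraries (adjusted p = 0.623). Psmb8, which encodes the beta5i subunit, had 20 to 25 raw counts in Nfya-labelled, 22 to 27 in Nfe2l1-labelled and 17 to 23 in GFP libraries. These ranges overlapped, and at this depth no difference was detectable, with log2 fold changes of 0.16 ± 0.23 for Nfya-labelled and 0.20 ± 0.23 for Nfe2l1-labelled against GFP libraries (edgeR adjusted p = 0.623 for Nfya-labelled and 0.514 for Nfe2l1-labelled libraries).

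Of the PA28 regulator only Psme2 could be tested. Psme2 had 43.5, 45.4 and 42.5 CPM in Nfya-labelled, 52.1, 50.2 and 50.4 CPM in Nfe2l1-labelled and 49.8, 46.4 and 48.7 CPM in GFP libraries. The 3 groups did not overlap, with the Nfya-labelled libraries lowest and the Nfe2l1-labelled libraries highest. The log2 fold change was -0.14 ± 0.05 in Nfya-labelled against GFP libraries (edgeR adjusted p = 0.0762) and 0.08 ± 0.05 in Nfe2l1-labelled against GFP libraries (adjusted p = 0.315). The Nfya-labelled difference passed the threshold under limma on the deposited RPKM values (adjusted p = 0.0162) and with counts corrected for an assumed coverage ceiling (adjusted p = 0.0420), and its adjusted p over 19 alternatives ran from 0.0162 to 0.406. Psme1 stayed at 5 counts or fewer in each library, and without a filter on low counts its adjusted p by edgeR was 0.787 in Nfya-labelled and 0.882 in Nfe2l1-labelled against GFP libraries.

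Tap1, which encodes a chain of the peptide transporter, rose with both viruses. Tap1 had 58.9, 60.9 and 60.7 CPM in Nfya-labelled, 45.9, 50.8 and 52.1 CPM in Nfe2l1-labelled and 40.9, 44.2 and 41.2 CPM in GFP libraries. The 3 groups did not overlap. The rise was 1.43-fold in Nfya-labelled against GFP libraries, a log2 fold change of 0.51 ± 0.05 (edgeR adjusted p = 9.76e-07), and 1.18-fold in Nfe2l1-labelled against GFP libraries, 0.24 ± 0.06 (adjusted p = 0.00203). Tap2 was at 3 counts or fewer in each library, and without a filter on low counts its adjusted p by edgeR was 1 in Nfya-labelled and 0.656 in Nfe2l1-labelled against GFP libraries.

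Tapbp, which encodes the loading chaperone tapasin, had 60.8, 56.8 and 59.1 CPM in Nfya-labelled, 76.8, 79.8 and 79.6 CPM in Nfe2l1-labelled and 63.6, 67.1 and 65.1 CPM in GFP libraries. The Nfe2l1-labelled libraries were the high ones and the Nfya-labelled libraries the low ones, with no overlap between groups. The rise was 1.21-fold in Nfe2l1-labelled against GFP libraries, a log2 fold change of 0.27 ± 0.04 (edgeR adjusted p = 3.43e-05). The fall in Nfya-labelled against GFP libraries was 1.11-fold, -0.15 ± 0.04 (adjusted p = 0.0248). That fall lost its call under DESeq2 (adjusted p = 0.231) and when 1 of 5 libraries was left out, namely GFP 1 (0.0786), GFP 2 (0.240), Nfe2l1 1 (0.0982), Nfe2l1 3 (0.0982) or Nfya 2 (0.109). The median log2 fold change over all genes in this comparison was -0.024 in the fit reported. It was 0.0086 without GFP 1 or without GFP 2, 0.011 without Nfe2l1 1 or without Nfe2l1 3, and -0.026 without Nfya 2. The Nfe2l1-labelled libraries enter this comparison only through the shared filter, scaling and spread. Whether the shift over all genes set these calls was not tested. Without GFP 3, the library that stood apart, the adjusted p of the Tapbp fall was 0.0428, and over 19 alternatives it ran from 0.0111 to 0.240.

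B2m had 142, 148 and 146 CPM in Nfya-labelled, 154, 155 and 144 CPM in Nfe2l1-labelled and 147, 155 and 161 CPM in GFP libraries. All 3 groups overlapped. The log2 fold change of B2m was -0.09 ± 0.04 in Nfya-labelled and -0.03 ± 0.04 in Nfe2l1-labelled against GFP libraries (edgeR adjusted p = 0.0766 for Nfya-labelled and 0.533 for Nfe2l1-labelled libraries).

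Nlrc5, the class I transactivator, showed the widest difference among the members. Nlrc5 had 16, 10 and 18 raw counts in Nfya-labelled, 46, 40 and 57 in Nfe2l1-labelled and 14, 19 and 11 in GFP libraries. Scaled to library size these were 2.45, 1.52 and 2.68 CPM in Nfya-labelled, 7.15, 6.27 and 7.77 CPM in Nfe2l1-labelled and 2.15, 2.81 and 1.95 CPM in GFP libraries. Every Nfe2l1-labelled library lay above all others, and the Nfya-labelled and GFP libraries overlapped. The rise was 3.04-fold in Nfe2l1-labelled against GFP libraries, a log2 fold change of 1.6 ± 0.23 (edgeR adjusted p = 1.56e-05). In Nfya-labelled against GFP libraries the log2 fold change was -0.06 ± 0.28 (adjusted p = 0.880). With limma on log2(RPKM + 0.5), a scale that understates the change of low genes, the Nfe2l1-labelled difference was 0.94.

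A direct test of Nfya-labelled against Nfe2l1-labelled libraries called 2 members higher and 4 lower of 8, beside 25.2% higher and 25.4% lower over all genes tested. The median log2 fold change of the members was -0.14, beside 0.01 over all genes. Psmb9 was 1.47-fold higher in Nfya-labelled libraries, 0.56 ± 0.15 on the log2 scale (edgeR adjusted p = 0.00606), and Tap1 1.21-fold higher, 0.28 ± 0.05 (adjusted p = 3.20e-04). Tapbp and Psmb10 were each 1.34-fold lower in Nfya-labelled libraries (adjusted p = 5.07e-07 and 0.00132), Nlrc5 was 3.17-fold lower (adjusted p = 1.40e-05) and Psme2 1.16-fold lower (adjusted p = 0.00347). The Psme2 call was lost under DESeq2 (adjusted p = 0.0954, the highest of 19 alternatives, of which the lowest gave 9.08e-04). Psmb8 and B2m did not pass the test, with log2 fold changes of -0.04 and -0.06 (edgeR adjusted p = 0.916 and 0.248).

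The immunoproteasome subunits were then set against the constitutive subunits they replace, as ratios of RPKM within each library. Psmb5, Psmb6 and Psmb7 rose in Nfe2l1-labelled against GFP libraries, by 0.14 ± 0.06, 0.38 ± 0.05 and 0.25 ± 0.05 on the log2 scale (edgeR adjusted p = 0.0441, 1.19e-05 and 2.77e-04), and none of them passed in Nfya-labelled against GFP libraries (adjusted p = 0.313, 0.130 and 0.152). Psmb9 stood at 10.9%, 9.20% and 10.8% of Psmb6 in Nfya-labelled, 3.85%, 4.90% and 6.09% in Nfe2l1-labelled and 5.23%, 7.35% and 5.73% in GFP libraries. The Nfya-labelled libraries lay above the GFP libraries without overlap, and the Nfe2l1-labelled libraries overlapped with them. The log2 ratio differed by 0.77 in Nfya-labelled against GFP libraries (exact two-sided permutation p = 0.1, adjusted over 6 comparisons 0.2) and by -0.31 in Nfe2l1-labelled against GFP libraries (exact p = 0.3, adjusted 0.36). Psmb10 averaged 38.8% ± 2.53 of Psmb7 in Nfya-labelled, 41.1% ± 4.74 in Nfe2l1-labelled and 34.6% ± 1.37 in GFP libraries (SD, n = 3 each). Both virus groups lay above the GFP libraries without overlap, by 0.16 for Nfya-labelled and 0.24 for Nfe2l1-labelled libraries on the log2 scale (exact two-sided permutation p = 0.1 for each, adjusted 0.2). For Nfya-labelled libraries the gap was narrow, with the lowest at 35.9% and the highest GFP library at 35.5%. Psmb8 averaged 2.95% ± 0.457 of Psmb5 in Nfya-labelled, 2.59% ± 0.256 in Nfe2l1-labelled and 2.48% ± 0.315 in GFP libraries (SD, n = 3 each), and the groups overlapped (exact two-sided permutation p = 0.3, adjusted 0.36, for Nfya-labelled and p = 0.7, adjusted 0.7, for Nfe2l1-labelled against GFP libraries). With 3 libraries against 3, this test cannot give a p below 0.1.

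**Figure D4:**
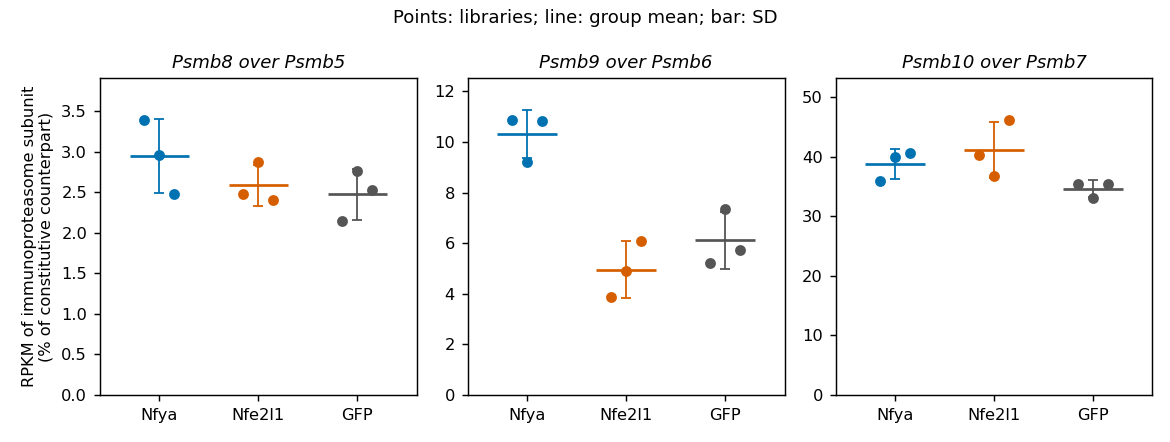
RPKM of each immunoproteasome subunit as a percent of the constitutive subunit it replaces (y axis from 0) in Nfya-labelled, Nfe2l1-labelled and GFP libraries; points are libraries, lines group means and bars SD. Psmb9 averages 10.3% of Psmb6 in Nfya-labelled, 4.95% in Nfe2l1-labelled and 6.11% in GFP libraries, whereas Psmb10 lies between 33.0% and 46.2% of Psmb7 in all 9 libraries.

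The rest of the pathway was read from gene lists. Of the 14 constitutive 20S core genes, 4 fell and 10 did not pass in Nfya-labelled against GFP libraries, with a median log2 fold change of -0.11. That is 28.6% lower, beside 27.9% over all genes. In Nfe2l1-labelled against GFP libraries 13 rose, which is 92.9%, beside 28.9% over all genes, with a median of 0.28. Psma3, an alpha ring subunit, had the smallest p of the list in Nfya-labelled libraries, at 207 ± 3.4 CPM against 245 ± 5.92 CPM in GFP libraries (SD, n = 3 each), and was also the core gene that did not pass in Nfe2l1-labelled libraries. Psma4 fell by 0.15 on the log2 scale in Nfya-labelled libraries (edgeR adjusted p = 0.0163). Psmb3 and Psma5 had the smallest p in Nfe2l1-labelled libraries, with log2 fold changes of 0.45 ± 0.04 and 0.42 ± 0.05 against GFP (edgeR adjusted p = 2.54e-07 and 8.07e-07). All 14 core genes were lower in Nfya-labelled than in Nfe2l1-labelled libraries, with a median of -0.39.

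Of the other proteasome activators and assembly factors, 7 of 8 were tested. In Nfya-labelled against GFP libraries 2 fell (28.6%, beside 27.9% over all genes), the PA28 gamma gene Psme3 (-0.12 ± 0.04, edgeR adjusted p = 0.0236) and the PA200 gene Psme4 (-0.29 ± 0.04, adjusted p = 2.18e-05). In Nfe2l1-labelled against GFP libraries 3 rose (42.9%, beside 28.9% over all genes), led by the proteasome inhibitor gene Psmf1 (0.55 ± 0.04, adjusted p = 2.43e-08) and the assembly chaperone gene Psmg1 (0.28 ± 0.05, adjusted p = 2.03e-04). Pomp was not tested for lack of counts. Among 8 other genes of peptide loading and trimming, Erap1, the aminopeptidase that trims peptides in the endoplasmic reticulum, averaged 123 ± 4.6 CPM in Nfya-labelled, 117 ± 4.18 CPM in Nfe2l1-labelled and 87.7 ± 3.49 CPM in GFP libraries (SD, n = 3 each). Erap1 rose in both comparisons with GFP (log2 fold change 0.49 in Nfya-labelled, edgeR adjusted p = 7.18e-08, and 0.42 in Nfe2l1-labelled libraries, adjusted p = 4.12e-07). It was the 1 gene of that list called in Nfya-labelled against GFP libraries (12.5% higher, below the 24.3% over all genes). In Nfe2l1-labelled libraries the tapasin-related gene Tapbpl also rose (0.35 ± 0.09, adjusted p = 0.00280), as did Tpp2, and the chaperone gene Canx fell (-0.12 ± 0.04, adjusted p = 0.0152). There 37.5% of the list rose, beside 28.9% over all genes, and 12.5% fell, beside 29.7%.

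The class I heavy chains that pair with B2m are encoded in the rat by the RT1 genes, whose near-identical copies make each count uncertain. Of 25 class I and class I-like genes 19 were tested. In Nfya-labelled against GFP libraries 6 rose (31.6%, beside 24.3% over all genes) and 4 fell (21.1%, beside 27.9%), with a median log2 fold change of 0.05. In Nfe2l1-labelled against GFP libraries 7 rose (36.8%, beside 28.9%) and 4 fell (21.1%, beside 29.7%), with a median of 0.11. Those that fell were RT1-A2, RT1-CE4, RT1-CE7 and RT1-T24-3 in Nfya-labelled against GFP libraries. For Nfe2l1-labelled against GFP libraries they were RT1-CE4, RT1-S3, RT1-T24-3 and Cd1d1. The class I genes described next were chosen for the smallest p in either comparison. RT1-CE5 averaged 25.4 ± 2.6 CPM in Nfya-labelled, 18.6 ± 0.0782 CPM in Nfe2l1-labelled and 15.9 ± 0.457 CPM in GFP libraries (SD, n = 3 each), and rose in Nfya-labelled against GFP libraries (0.67 ± 0.09, edgeR adjusted p = 1.05e-05). RT1-M3-1 rose in both comparisons with GFP, by a log2 fold change of 1.6 ± 0.24 in Nfya-labelled (adjusted p = 3.34e-05) and 1.85 ± 0.23 in Nfe2l1-labelled libraries (adjusted p = 4.05e-06). Fcgrt, which encodes the neonatal Fc receptor, a class I-like molecule that also pairs with beta-2 microglobulin and does not present peptides, averaged 45.7 ± 0.625 CPM in Nfya-labelled, 68.9 ± 1.74 CPM in Nfe2l1-labelled and 15.1 ± 2.44 CPM in GFP libraries (SD, n = 3 each). Its log2 fold change against GFP was 1.59 in Nfya-labelled (edgeR adjusted p = 1.89e-10) and 2.18 in Nfe2l1-labelled libraries (adjusted p = 1.08e-12). Of 12 class II presentation genes, which professional antigen-presenting cells use, only Cd74 and RT1-Db1 had enough counts to be tested. RT1-Db1 averaged 2.78 ± 0.253 CPM in Nfya-labelled, 6.40 ± 0.973 CPM in Nfe2l1-labelled and 1.54 ± 0.722 CPM in GFP libraries (SD, n = 3 each) and rose in both comparisons with GFP. Cd74, the invariant chain gene, averaged 2.68 ± 0.869 CPM in Nfya-labelled, 1.68 ± 0.650 CPM in Nfe2l1-labelled and 5.01 ± 1.74 CPM in GFP libraries (SD, n = 3 each) and fell in both. Ciita, the class II counterpart of Nlrc5, had too few counts to be tested. Its counts were 7, 0 and 0 in Nfya-labelled, 2, 0 and 0 in Nfe2l1-labelled and 7, 6 and 13 in GFP libraries.

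Among the factors that assemble at MHC promoters with NLRC5, 7 of 8 were tested. Rfx5, a subunit of the RFX complex, averaged 102 ± 2.50 CPM in Nfya-labelled, 73.8 ± 2.98 CPM in Nfe2l1-labelled and 105 ± 4.83 CPM in GFP libraries (SD, n = 3 each). Rfx5 fell in Nfe2l1-labelled against GFP libraries (-0.52 ± 0.04, edgeR adjusted p = 4.81e-08), in which Nlrc5 rose, and did not pass in Nfya-labelled libraries (adjusted p = 0.325). In Nfya-labelled against GFP libraries Creb1 rose (0.45 ± 0.07, adjusted p = 3.34e-05) and Atf1 fell (-0.21 ± 0.04, adjusted p = 4.72e-04). Nfya itself and Rfxank were the genes of this list that rose in Nfe2l1-labelled libraries, and Nfya and Creb1 those that rose in Nfya-labelled libraries, in each case 28.6% of the tested list, beside 28.9% over all genes in Nfe2l1-labelled and 24.3% in Nfya-labelled against GFP libraries.

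Interferon gamma (Ifng) had no count in any library, which allows a level of up to 3 counts per library, and Ifnb1 and Tnf had too few counts to be tested. Of 24 genes of interferon and NF-kB signalling 21 were tested, of which 5 rose (23.8%, beside 24.3% over all genes) and 7 fell (33.3%, beside 27.9%) in Nfya-labelled against GFP libraries. In Nfe2l1-labelled against GFP libraries 4 rose (19.0%, beside 28.9%) and 8 fell (38.1%, beside 29.7%). Irf1, which binds interferon response elements, did not pass in Nfya-labelled (adjusted p = 0.800) or Nfe2l1-labelled libraries (adjusted p = 0.0614). Nfkb1, an NF-kB subunit gene, rose in both, by 0.32 in Nfya-labelled (adjusted p = 6.47e-06) and 0.40 in Nfe2l1-labelled libraries (adjusted p = 3.64e-07). The kinase gene Jak2 fell in both, at -0.32 in Nfya-labelled (adjusted p = 2.00e-07) and -0.08 in Nfe2l1-labelled libraries (adjusted p = 0.0335). The receptor gene Ifnar1 rose in both, by 0.14 in Nfya-labelled (adjusted p = 0.00428) and 0.50 in Nfe2l1-labelled libraries (adjusted p = 3.42e-09).

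Of 32 interferon-induced genes, a list that holds Psmb8, Psmb9 and Tap1 among them, 30 were tested. In Nfya-labelled against GFP libraries 8 rose (26.7%, beside 24.3% over all genes) and 12 fell (40%, beside 27.9%), with a median log2 fold change of -0.25. Without GFP 2, chosen after seeing the data, 9 rose (beside 24.9% over all genes) and 9 fell (beside 21.4%), and the median was -0.0047. For the same 30 genes without GFP 1, 6 rose and 16 fell, beside 24.8% and 21.3% over all genes (median -0.27). Without GFP 3, 6 rose and 13 fell, beside 22% and 26.6% over all genes (median -0.29). In Nfe2l1-labelled against GFP libraries 5 rose (16.7%, beside 28.9%) and 13 fell (43.3%, beside 29.7%), with a median of -0.27. Without GFP 2, 5 rose and 12 fell, beside 28% and 25.7% over all genes, with a median of -0.23. Without GFP 1, 5 rose and 14 fell (28.2% and 25.6% over all genes). Without GFP 3, 5 rose and 13 fell (27% and 28.2% over all genes). Psmb9 and Tap1 in Nfya-labelled libraries, and Tap1 in Nfe2l1-labelled libraries, were among those that rose. The guanylate-binding protein gene Gbp2 rose in both comparisons, at 77.0 ± 3.99 CPM in Nfya-labelled, 72.6 ± 4.52 CPM in Nfe2l1-labelled and 31.3 ± 2.6 CPM in GFP libraries (SD, n = 3 each). Gbp5 rose in Nfya-labelled against GFP libraries (1.11 ± 0.10, edgeR adjusted p = 2.55e-07) and stood at 0.03 ± 0.12 in Nfe2l1-labelled libraries (adjusted p = 0.873), the same calls as Psmb9. Samhd1, which encodes a nucleotide hydrolase, rose in Nfe2l1-labelled libraries (1.72 ± 0.06, adjusted p = 3.14e-12) and fell in Nfya-labelled libraries (-0.41 ± 0.09, adjusted p = 0.00271).

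**Figure D5:**
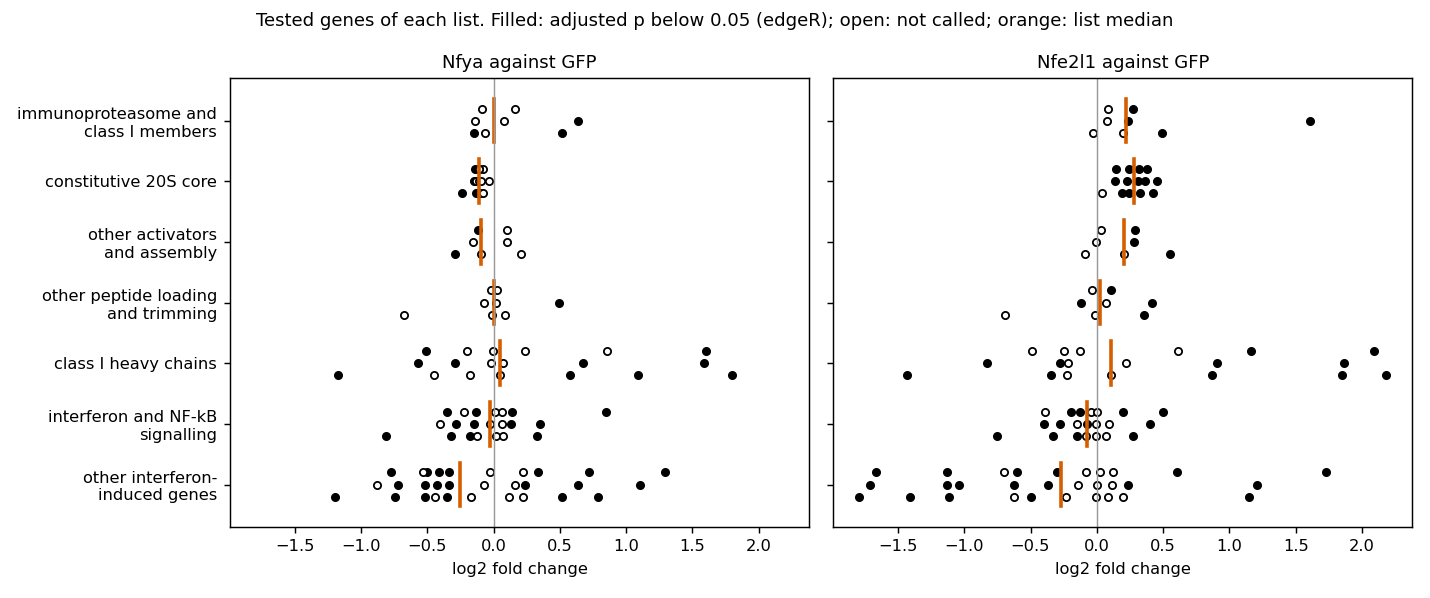
The log2 fold change (x axis) of every tested gene of the members and of 6 pathway lists, in Nfya-labelled against GFP libraries (left) and Nfe2l1-labelled against GFP libraries (right); filled points passed an edgeR adjusted p below 0.05, and orange lines are list medians. The constitutive 20S core genes lie close together, with a median of -0.11 on the left and 0.28 on the right, and the interferon-induced genes are spread widely, with medians of -0.25 on the left and -0.27 on the right.

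For each member, the gene outside the set whose profile over the 9 libraries was most like its own was found by the root mean square difference of centred log2 CPM among 11935 genes. These were Rpl36a for Psmb8 (0.0910), Asic1 for Psmb9 (0.123), Tmem71 for Psmb10 (0.0716), Pdcl for Psme2 (0.0263), Fndc3b for Tap1 (0.0528), Atf6 for Tapbp (0.0315), Cul3 for B2m (0.0130) and Lpin3 for Nlrc5 (0.185). A smaller value means a closer profile for the same member. Values of different members are not on 1 scale, as the median over all candidates ran from 0.157 for B2m to 0.779 for Nlrc5. The candidates had a mean of at least 5 CPM, and none of the 8 most alike genes belongs to a pathway list used here.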

How the data were processed

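The 9 stranded mRNA libraries came from adenovirus-infected cells, with 3 libraries for each of Nfya, Nfe2l1 and GFP. The authors deposited whole-number counts for 28935 genes and RPKM values (per kilobase of gene length and library size) for 14986 genes. The gene length in bases is a column of that table, per the file headers. The authors also deposited their edgeR output for both viruses, with log2 fold changes relative to GFP. Per the file headers, that output also gives log2 CPM, the score of a likelihood ratio test (LR) and the p-value with its adjusted value. Per the submitters' processing notes, FastQC 0.11.4, featureCounts 1.6.0 and edgeR 3.20.5 were used, and the builds rn6, mm10 and GRCm38 are named. Aligner, annotation and strand setting are details not given in the sources used here.

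Here the counts were tested with edgeR 4.0.16 in R 4.3.3. Genes kept by filterByExpr were scaled by TMM and entered 1 quasi-likelihood F test model of the 9 libraries, with a term for group and no other. A call needed an adjusted p (Benjamini-Hochberg, over the 14151 genes) below 0.05. CPM values include the TMM factors. DESeq2 1.42.0 and limma 3.58.1 (on log2(RPKM + 0.5)) were alternatives, as were other filters, scalings, a coverage ceiling and leaving out each library. Leaving out GFP libraries for the interferon-induced list was added after seeing the data. Standard errors were derived from F, by dividing each log2 change by its root. The edgeR, DESeq2 and limma steps were tested on simulated data with known changes. These changes were larger than every called member change except those of Nlrc5, so changes as small as the others were not covered. Library totals limit the precision for genes with few counts, such as Psmb8 and Nlrc5. Subunit ratios were compared with SciPy 1.17.1 by exact permutation.

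The members and the gene lists were chosen with earlier results of these data known. The genes named were the 10 members, Nfya, Nfe2l1, Psmb5, Psmb6, Psmb7, Irf1, Rfx5 and Ciita, the 2 tested genes of each list with the smallest p against GFP for each virus, and the most alike gene of each member. A gene and a motif that this rule and the motif search also covered are not reported here. Other names complete a short count and were chosen after their values were seen. Promoter sequences are from RefSeq (GRCr8), and no coordinates of the builds named in the notes were used.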

Additional observations from a re-analysis of the deposited data

How the results depend on the processing

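Each tested member was refitted under up to 19 alternatives per comparison. Of the 13 member differences called, 234 refits kept the direction and the call and 11 lost the call, 10 of them for Tapbp in Nfya-labelled against GFP libraries and 1 for Psme2 in Nfya-labelled against Nfe2l1-labelled libraries (DESeq2). The count of members lower in Nfya-labelled against GFP libraries, 1 in the fit reported, was 0 under DESeq2, with no filter on low counts, with a mean of at least 5 CPM, with only the 6 libraries compared and at an adjusted p below 0.01, 2 under limma on log2(RPKM + 0.5), 3 with counts corrected for an assumed ceiling of 1.6 counts per base, and 0 to 1 when 1 library was left out. The cause was not tested. Of the 11 differences not called, 8 refits turned the direction. The log2 fold change of B2m in Nfe2l1-labelled against GFP libraries was 0.0058 with no filter and -0.0517 to 0.0183 without 1 library. Without 1 library, Nlrc5 in Nfya-labelled against GFP libraries ranged from -0.223 to 0.147, Psmb9 in Nfe2l1-labelled against GFP libraries from -0.0446 to 0.234, Psmb8 in Nfya-labelled against Nfe2l1-labelled libraries from -0.112 to 0.0885, and the log2 ratio of Psmb8 to Psmb5 in Nfe2l1-labelled against GFP libraries from -0.0369 to 0.148. Nlrc5 in Nfe2l1-labelled against GFP libraries ranged from 0.94 to 1.79 over its 18 alternatives. Over all genes, DESeq2 called 2486 lower in Nfya-labelled against GFP libraries and 2392 lower in Nfya-labelled against Nfe2l1-labelled libraries, where edgeR called 3953 lower in Nfya-labelled against GFP and 3597 lower in Nfya-labelled against Nfe2l1-labelled libraries.

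The labels do not say that a replicate number joins libraries of different groups, so the numbers were not taken as pairs. Same-numbered libraries of different groups gave correlations of their deviations from the group means between -0.07 and 0.05. Where libraries of a group differ by little more than sampling noise, true pairs could give such low values too. The correlations therefore cannot decide whether the numbers are pairs. With the replicate number as a block (replicate block), the members called were 2 higher and 1 lower in Nfya-labelled against GFP libraries, 4 higher in Nfe2l1-labelled against GFP libraries, and 2 higher and 4 lower in Nfya-labelled against Nfe2l1-labelled libraries, as without it.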

Other observations

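The authors' deposited table for Nfya against GFP gives log2 fold changes of 0.67 for Psmb9 (adjusted p = 5.29e-05), 0.55 for Tap1 (1.45e-15) and -0.11 for Tapbp (0.11), so that Tapbp is not called there. The authors' deposited table for Nfe2l1 against GFP gives 0.50 for Psmb10 (adjusted p = 4e-05), 0.24 for Tap1 (0.00190), 0.27 for Tapbp (4.25e-06) and 1.6 for Nlrc5 (3.3e-10).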
